A study of Homo sapiens with 11 samples.

Results

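The genes described here are the receptor chains for type I and type II interferon (IFNAR1, IFNAR2, IFNGR1 and IFNGR2), the kinase JAK1, the signal transducer STAT2 and the interferon regulatory factors IRF1, IRF7 and IRF9. They were taken by gene symbol, 9 of the 35303 genes in the count file, and all 9 were among the 16117 genes abundant enough to be tested. The cells were LX-2, a line of immortalised hepatic stellate cells from human liver, the cell type that makes scar matrix once activated, and RNA was measured by RNA-seq. All cells were of wild-type genotype and were collected at 24 h. The groups were HIV-1 of the BaL strain at a multiplicity of infection of 0.1 with LTA (lipoteichoic acid, from the wall of Gram-positive bacteria) at 1 ug per ml, the same virus alone, and PBS as the control. They are called HIV-1+LTA, HIV-1 and PBS here. Each group had 3 libraries, 1 from each of batches 1, 2 and 3, and the replicate number equals the batch number in the labels. No group with LTA alone was used, so LTA could be compared only on top of virus. Nothing in the labels says whether the 3 libraries of a group came from separate cultures, so the spread that the p-values below measure, that between libraries, may be technical.

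Type I interferons bind a pair of receptor chains, IFNAR1 and IFNAR2, and type II interferon binds IFNGR1 together with IFNGR2. Janus kinases on the receptor tails, JAK1 among them, then phosphorylate STAT proteins. STAT2 joins with another STAT and with IRF9 to form ISGF3, the complex that binds the interferon-stimulated response element (ISRE) of antiviral genes, while a STAT homodimer called GAF binds the gamma-activated site (GAS) of genes that answer type II interferon. IRF1 is itself a target of GAF and switches on antigen presentation genes, and IRF7 drives transcription of type I interferon genes. Hepatic stellate cells are known to respond to both interferon types.

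Libraries held 50.6 to 90.6 M counts. Levels are given as CPM (counts per 1e6 counts of the library) scaled with TMM, the edgeR method that corrects for library composition. Principal component 1, with 81.6% of the variance, set batch 3 apart from batches 1 and 2 in all 3 groups, so every comparison of groups was made within batch. The stellate cell identity was checked against 11 markers. Their summed level ran from 4235 to 6697 CPM in HIV-1+LTA, from 4416 to 7212 CPM in HIV-1 and from 3836 to 7536 CPM in PBS, and 9 of the 11 averaged at least 1 CPM. Single markers varied between libraries to unlike degrees. SPARC ran from 1254 to 1743 CPM, but VIM from 539 to 3128, LOX from 122 to 1236 and COL1A2 from 33.2 to 323 CPM. DES stayed at or below 0.259 CPM, and LRAT, the retinol-storing enzyme of quiescent stellate cells, had 0 counts in 7 of 9 libraries. Immune cell markers summed to 8.77 to 30.3 CPM in HIV-1+LTA, 6.92 to 22.6 CPM in HIV-1 and 5.70 to 24.2 CPM in PBS. Of these 8 markers 3 averaged at least 1 CPM (CD4, CD14 and CSF1R), while the T cell gene CD3E had 0 counts in 7 of 9 libraries. Hepatocyte markers summed to at most 1.96 CPM and endothelial and epithelial markers to at most 1.16 CPM. The part of these other cell types in the results was not tested.

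STAT2 and IRF1 stood higher when LTA was added to virus, but in 2 of the 3 batches only. STAT2 averaged 1.24-fold higher in HIV-1+LTA than in HIV-1. IRF1 in HIV-1+LTA averaged 1.17-fold higher than in HIV-1 and 1.27-fold higher than in PBS. IRF7, a low-abundance gene here, was higher than in PBS in all 3 batches with virus alone and with virus plus LTA. IFNAR1, IFNGR1, IFNGR2 and JAK1 stayed close to their reference levels. No gene of the 9 passed an adjusted p of 0.05 in any of the 3 treatment comparisons, where edgeR called 0% of all genes. All 9 passed in edgeR for batch 3 against the other batches, as did 71.2% of all genes. The batch calls of IRF1 and IRF9 did not hold in every fit with 1 library left out.

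Sequences are shown for the 2 promoters, among those of these genes that were searched, that hold a GAS core. The ChIP-seq peak that lies at the IRF1 locus is shown too. RefSeq promoter windows had 300 bases, 250 before the transcription start and 50 after it (build GRCh38.p14). They were matched for 7 of the 9 genes, 11 windows in all. No window was matched for IFNAR2 or IRF7, so the promoters of these genes were not searched. The GAS core TTCNNNGAA was searched on both strands, as was the ISRE core, a pair of GAAA repeats separated by any 2 bases. A GAS core was found in 2 of the 11 windows and an ISRE core in 0 of 11. Over all 35116 RefSeq windows of this length the GAS core was in 7.66% and the ISRE core in 3.57%. The capitals in each promoter mark the GAS core. In IRF1 (chr5:132490724-132491023, minus strand) it lies from -124 to -116 relative to the start, and in IRF9 (chr14:24161015-24161314, plus strand) from -63 to -55.
IRF1 promoter: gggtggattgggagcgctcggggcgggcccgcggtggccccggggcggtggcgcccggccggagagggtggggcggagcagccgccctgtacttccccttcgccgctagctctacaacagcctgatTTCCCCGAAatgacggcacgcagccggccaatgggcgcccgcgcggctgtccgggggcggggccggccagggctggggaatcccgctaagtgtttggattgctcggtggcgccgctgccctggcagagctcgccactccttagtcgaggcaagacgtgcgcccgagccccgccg
IRF9 promoter: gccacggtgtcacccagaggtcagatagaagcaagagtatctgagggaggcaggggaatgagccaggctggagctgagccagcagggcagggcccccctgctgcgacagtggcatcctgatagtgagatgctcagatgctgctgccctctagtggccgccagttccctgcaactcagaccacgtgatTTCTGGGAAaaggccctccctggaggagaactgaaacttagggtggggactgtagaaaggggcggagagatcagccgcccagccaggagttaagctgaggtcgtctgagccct

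The ChIP-seq sample of HIV-1-treated cells came with a peak list of 166 lines, 154 of them distinct, and its antibody, control and peak threshold are not given in the labels. The title of that sample names Lx2 cells while its cell line label names Lx5, so which cells the peaks come from is uncertain. A single peak fell within the annotated span of 1 of the 9 genes, IRF1 (GRCh37, GENCODE v44, chr5:131776132-131844411, minus strand). The peak, chr5:131799730-131800009, is 280 bases long and lies in exon 4 of IRF1-AS1, the antisense transcript of the locus, 17.29 kb beyond the end of the main IRF1 transcript and 26.6 kb from its start. It is shown because it is the only peak of the list within reach of these genes. The nearest peak to any other of the 9 lay 854 kb away, from IRF9. Its sequence, read on the plus strand of GRCh37 and with no base in capitals because neither core was present, is given here.
IRF1 locus peak: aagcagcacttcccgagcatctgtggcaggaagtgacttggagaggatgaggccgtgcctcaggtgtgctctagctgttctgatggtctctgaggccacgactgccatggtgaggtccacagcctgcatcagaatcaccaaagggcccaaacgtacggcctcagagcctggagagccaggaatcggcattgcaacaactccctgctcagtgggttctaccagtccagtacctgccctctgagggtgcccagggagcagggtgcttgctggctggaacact
Among the 154 distinct peaks, which had a median length of 223 bases, 2.60% held a GAS core and 0% an ISRE core. A match to either core is a string of letters and not a measured binding site, and the peak list has no value per peak.

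Levels per kilobase of the main transcript placed JAK1 first, at 52.7 ± 5.60 CPM per kb (SD, n = 9 libraries), above the next gene in 9 of 9 libraries. IFNGR2 at 31.7 ± 9.98 and IFNAR1 at 31.5 ± 8.89 CPM per kb could not be ordered, as IFNGR2 was the higher in 5 of 9 libraries. IFNGR1 followed at 24.3 ± 5.25 CPM per kb, below IFNAR1 in 8 of 9 libraries, and STAT2 at 17.1 ± 5.11 CPM per kb. The IRFs were less abundant. IRF1 stood at 5.75 ± 1.01, IRF9 at 2.32 ± 0.376 and IRF7 at 1.03 ± 0.299 CPM per kb, each above the next in 9 of 9 libraries. IFNAR2, the chain that carries the main STAT docking sites of the type I receptor, was at 0.869 ± 0.387 CPM per kb and could not be ordered against IRF7, which was higher in 5 of 9 libraries. The counts of IFNAR2 are uncertain, because the gene shares its locus with other transcripts and the strand setting of the counting is not given.

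**Figure D1:**
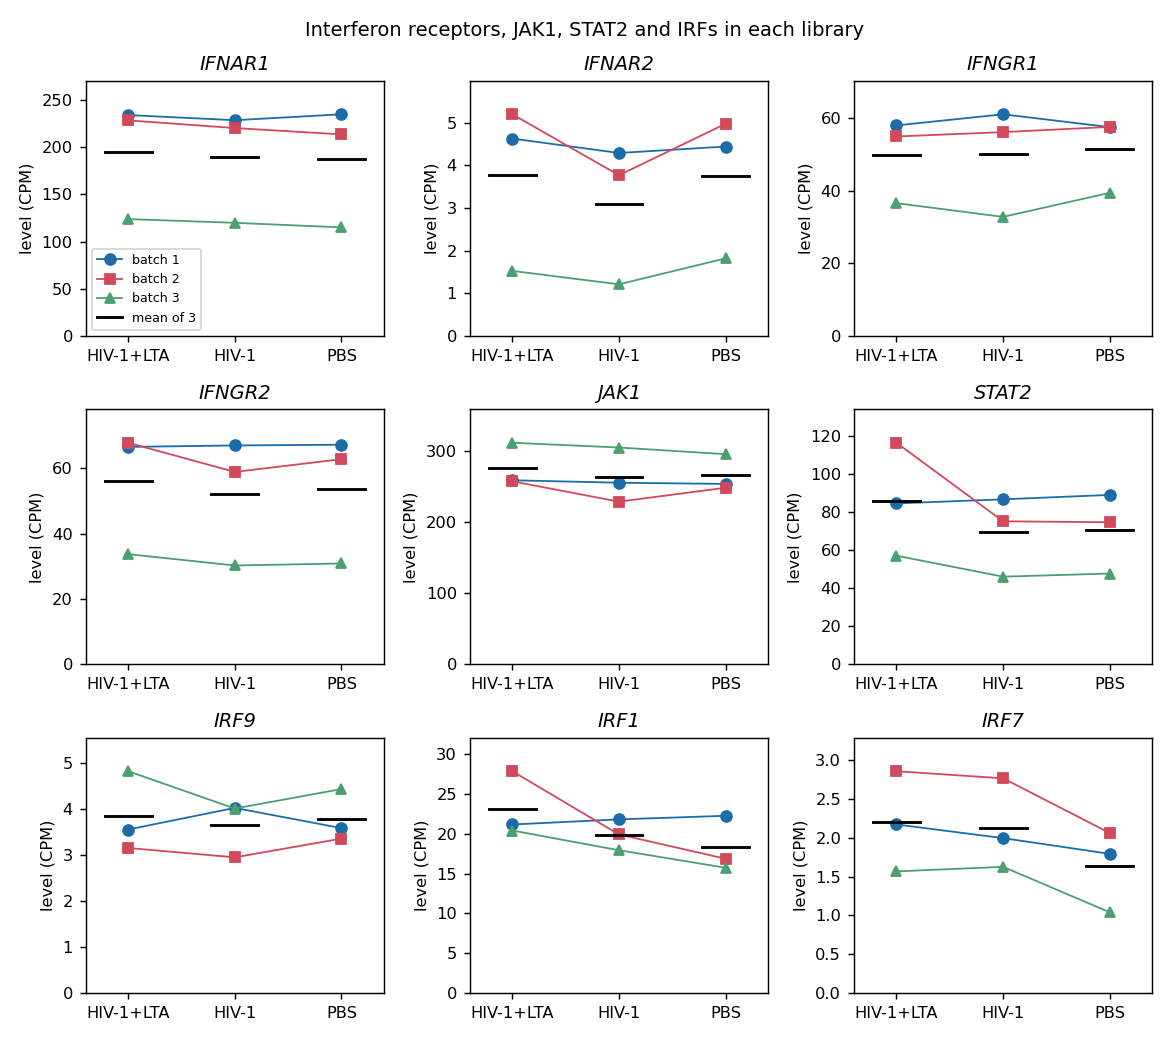
Level in CPM of each gene (one panel each, vertical axis from 0) in the HIV-1+LTA, HIV-1 and PBS libraries, with a line joining the 3 libraries of a batch and a black bar for the mean of 3. Batch 3 lies below the other batches for IFNAR1, IFNAR2, IFNGR1, IFNGR2, STAT2 and IRF7, and the batch 2 library of HIV-1+LTA is the highest of all 9 for STAT2, at 117 CPM, and for IRF1, at 27.9 CPM.

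IFNAR1, the chain of the type I receptor that binds the kinase TYK2, lies at chr21:34696692-34732170 (GRCh37, plus strand). In batches 1, 2 and 3 it had 234, 229 and 124 CPM in HIV-1+LTA, 229, 220.4 and 120.0 CPM in HIV-1, and 235, 214 and 115 CPM in PBS. The groups overlapped throughout, and the libraries of batch 3 were the lowest in each group by a wide margin. IFNAR1 differed by 0.07 on the log2 scale between HIV-1+LTA and PBS, by 0.04 between HIV-1+LTA and HIV-1, and by 0.02 between HIV-1 and PBS, each with an SE of 0.0470.

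IFNAR2, the other chain of that receptor, lies near it at chr21:34577587-34637980 (plus strand) and was counted from 70 to 416 times per library. It had 4.63, 5.20 and 1.53 CPM in HIV-1+LTA, 4.29, 3.77 and 1.21 CPM in HIV-1, and 4.44, 4.98 and 1.82 CPM in PBS. Within each batch the HIV-1 library was the lowest of the 3, although the groups overlapped because batch 3 was low in all of them. HIV-1 differed from PBS by -0.31 on the log2 scale (SE 0.139), with an unadjusted p of 0.0457 and an adjusted p of 0.946 in the edgeR quasi-likelihood test with batch, and HIV-1+LTA differed from HIV-1 by 0.30 (SE 0.140), with an adjusted p of 0.338. Against PBS, HIV-1+LTA differed by -0.01 (SE 0.137). The gene shares its locus with a readthrough transcript into IL10RB and with the antisense transcript IL10RB-DT named in the annotation.

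IFNGR1, the ligand-binding chain of the type II receptor (chr6:137518620-137540586, minus strand), had 58.0, 54.9 and 36.6 CPM in HIV-1+LTA, 61.1, 56.2 and 32.8 CPM in HIV-1, and 57.5, 57.6 and 39.4 CPM in PBS. IFNGR2, its signalling partner (chr21:34775719-34851655, plus strand), had 66.6, 67.8 and 33.7 CPM in HIV-1+LTA, 67.0, 58.9 and 30.3 CPM in HIV-1, and 67.2, 62.8 and 30.9 CPM in PBS. For both chains the groups overlapped and the 3 batch 3 libraries were the lowest. The largest difference between groups was that of IFNGR2 for HIV-1+LTA against HIV-1, 0.12 on the log2 scale (SE 0.0554, adjusted p = 0.344 in edgeR). IFNGR2 overlaps TMEM50B on the opposite strand, which had 1438 to 4967 counts per library.

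JAK1, the kinase shared by both receptors (chr1:65298906-65533437, minus strand), was the most abundant of the 9 genes in CPM too. Its main transcript overlaps 3 other annotated genes, RAVER2 among them, and the strand setting of the counting is not given. JAK1 had 259, 257 and 312 CPM in HIV-1+LTA, 255, 229 and 305 CPM in HIV-1, and 254, 248 and 296 CPM in PBS. Here batch 3 was the highest in every group, and in each batch the HIV-1+LTA library was above its HIV-1 and PBS partners. Those differences were small: the log2 fold change was 0.07 (SE 0.0507, adjusted p = 0.517 in edgeR) against HIV-1 and 0.05 (SE 0.0506, adjusted p = 0.625) against PBS. For IFNAR1, IFNGR1, IFNGR2 and JAK1 taken one by one, the 95% intervals of the fold ran from 0.865 to 1.09 over the 4 genes for HIV-1 against PBS, from 0.914 to 1.18 with HIV-1+LTA set against HIV-1, and from 0.873 to 1.14 for HIV-1+LTA against PBS.

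STAT2, the STAT specific to the ISGF3 complex (chr12:56735381-56753987, minus strand), had 84.7, 117 and 57.2 CPM in HIV-1+LTA, 86.8, 75.3 and 46.2 CPM in HIV-1, and 89.2, 74.8 and 47.8 CPM in PBS. In batches 2 and 3 the HIV-1+LTA library was the highest of its batch, and in batch 1 it was the lowest, by a small margin. The within-batch differences of log2 CPM for HIV-1+LTA minus HIV-1 were -0.04, 0.63 and 0.31 in batches 1, 2 and 3. For HIV-1+LTA minus PBS they were -0.07, 0.64 and 0.26, and for HIV-1 minus PBS -0.04, 0.01 and -0.05. STAT2 in HIV-1 thus stayed close to PBS in every batch. In the edgeR fit the STAT2 log2 fold change was 0.31 (SE 0.108, adjusted p = 0.236) when HIV-1+LTA was set against HIV-1. Set against PBS it was 0.28 (SE 0.107, adjusted p = 0.235). DESeq2 with batch gave 0.31 and 0.27, with adjusted p = 0.0869 and 0.128. The PBS and HIV-1 libraries are each used with the same HIV-1+LTA libraries, so these 2 comparisons are not independent.

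The STAT2 result rested on which libraries were kept. Without the HIV-1+LTA library of batch 1 the log2 fold change was 0.48 against HIV-1 (edgeR adjusted p = 0.000783) and 0.46 against PBS (adjusted p = 0.00117). That fit called 2390 of all genes against HIV-1 and 2648 against PBS, compared with 0 in the fit of all libraries. Without the whole of batch 1 the STAT2 value was 0.49 (adjusted p = 0.00655) and 0.47 (adjusted p = 0.00772). Many genes passed without batch 1: DESeq2 called 10.7% of all genes against HIV-1 there and 13.1% against PBS. Without the HIV-1+LTA library of batch 2 the STAT2 value was 0.12 (adjusted p = 0.695) and 0.10 (adjusted p = 0.681). STAT2 also passed when every gene with a count was kept in the edgeR fit, with unchanged sizes of 0.31 (adjusted p = 0.000673) and 0.28 (adjusted p = 0.00333). In that setting 1016 genes passed for HIV-1+LTA against HIV-1, compared with 0 among the 16117 filtered genes.

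IRF9, the DNA-binding partner of STAT2 in ISGF3 (chr14:24630443-24637252, plus strand), had smaller differences between groups. It had 3.56, 3.16 and 4.83 CPM in HIV-1+LTA, 4.03, 2.95 and 4.01 CPM in HIV-1, and 3.59, 3.36 and 4.44 CPM in PBS. Its groups overlapped, and no group was highest in all batches. The within-batch differences of log2 CPM were -0.18, 0.10 and 0.26 for HIV-1+LTA minus HIV-1, and -0.01, -0.09 and 0.12 for HIV-1+LTA minus PBS. HIV-1+LTA differed from HIV-1 by 0.06 on the log2 scale (SE 0.131), and HIV-1 differed from PBS by -0.05 (SE 0.129). Between HIV-1+LTA and PBS the value was 0.01 (SE 0.129), and its sign turned with the scaling method. The 95% interval of the fold for HIV-1+LTA against HIV-1 ran from 0.854 to 1.27. IRF9 overlaps a readthrough transcript and a long non-coding RNA at its locus, so its 177 to 336 counts per library are uncertain.

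IRF1, which activates MHC class I and immunoproteasome genes, had 21.2, 27.9 and 20.4 CPM in HIV-1+LTA, 21.8, 19.9 and 17.9 CPM in HIV-1, and 22.3, 16.9 and 15.7 CPM in PBS. In batches 2 and 3 the order was HIV-1+LTA above HIV-1 above PBS, and in batch 1 the 3 libraries were close to each other. The within-batch differences of log2 CPM were -0.07, 0.72 and 0.38 for HIV-1+LTA minus PBS and -0.04, 0.48 and 0.19 for HIV-1+LTA minus HIV-1. For HIV-1 minus PBS they were -0.03, 0.24 and 0.19. IRF1 had the largest share of variance among groups of the 9 genes, 37.3% of its variance in log2 CPM, against 28.0% among batches. Its fitted log2 fold change was 0.34 (SE 0.116, adjusted p = 0.213 in edgeR and 0.105 in DESeq2) for HIV-1+LTA against PBS. Relative to HIV-1 the IRF1 value of HIV-1+LTA was 0.22 (SE 0.116, adjusted p = 0.389 in edgeR). HIV-1 differed from PBS by 0.12 (SE 0.116, adjusted p = 0.951).

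Leaving out the HIV-1+LTA library of batch 1 gave IRF1 a log2 fold change of 0.52 against PBS (edgeR adjusted p = 0.00251) and of 0.39 against HIV-1 (adjusted p = 0.0123). The same fit called 2648 of all genes against PBS and 2390 against HIV-1. Without the whole of batch 1 the IRF1 value was 0.57 (adjusted p = 0.00620) against PBS and 0.35 (adjusted p = 0.0453) against HIV-1. There DESeq2 called 13.1% of all genes against PBS and 10.7% against HIV-1. Without the HIV-1+LTA library of batch 2 the IRF1 value was 0.17 (adjusted p = 0.586) against PBS and 0.04 (adjusted p = 0.937) against HIV-1. With every gene that had a count in the fit, IRF1 passed against PBS at 0.34 (adjusted p = 0.00456). IRF1-AS1 overlaps the annotated span of IRF1 on the opposite strand, and reads of the 2 transcripts cannot be told apart without strand.

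IRF7, the regulator of type I interferon gene transcription (chr11:612553-615983, minus strand), was counted 52 to 203 times per library. It had 2.17, 2.86 and 1.57 CPM in HIV-1+LTA, 2.00, 2.77 and 1.63 CPM in HIV-1, and 1.79, 2.06 and 1.04 CPM in PBS. In each batch the PBS library was the lowest, and the HIV-1+LTA and HIV-1 libraries were close to each other. The within-batch differences of log2 CPM were 0.27, 0.47 and 0.58 for HIV-1+LTA minus PBS and 0.15, 0.42 and 0.63 for HIV-1 minus PBS. IRF7 had a log2 fold change of 0.43 (SE 0.159, unadjusted p = 0.0200, adjusted p = 0.230 in edgeR) for HIV-1+LTA against PBS. HIV-1 set against PBS gave 0.39 (SE 0.160, unadjusted p = 0.0323, adjusted p = 0.946), and HIV-1+LTA set against HIV-1 gave 0.04 (SE 0.158). The comparisons with PBS share the PBS libraries.

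**Figure D2:**
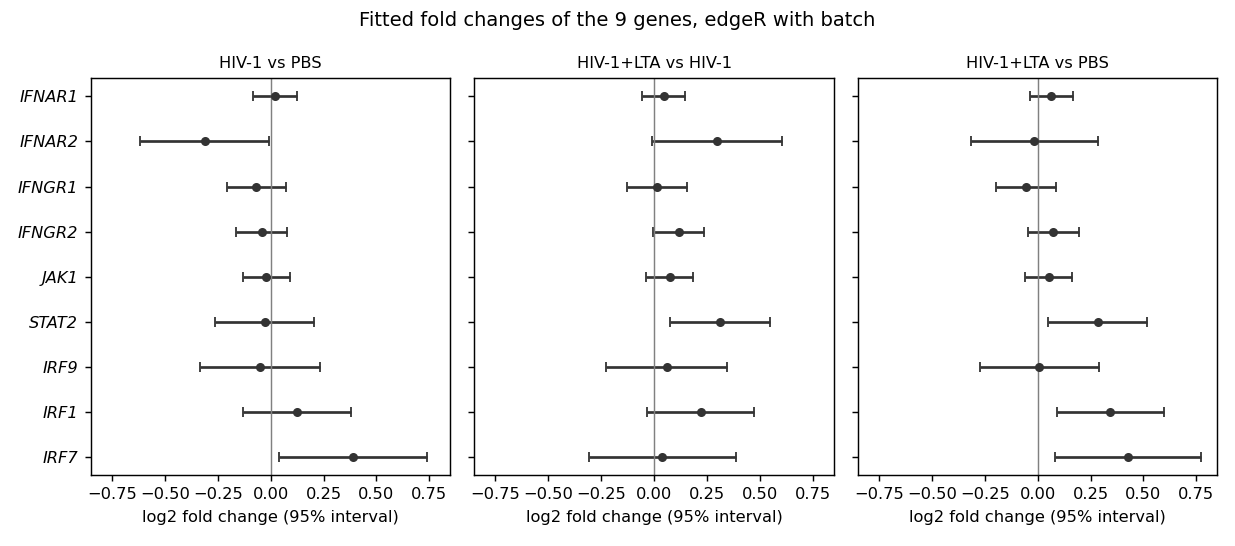
Fitted log2 fold change (horizontal axis) of the 9 genes in 3 panels, 1 per treatment comparison, as points with 95% intervals from edgeR with batch. The intervals of STAT2, IRF1 and IRF7 for HIV-1+LTA against PBS lie above 0 before adjustment for the number of genes, and those of IFNAR1, IFNGR1, IFNGR2 and JAK1 include 0 in all panels.

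Counted over the 9 genes, edgeR with batch called 0 of 9 in each treatment comparison, and it called 0% of all 16117 genes as well. At an unadjusted p below 0.05 it gave 2 of 9 for HIV-1 against PBS (IFNAR2 and IRF7), where 4.21% of all genes passed. It gave 1 of 9 for HIV-1+LTA against HIV-1 (STAT2), where 15.4% passed, and 3 of 9 for HIV-1+LTA against PBS (STAT2, IRF1 and IRF7), where 16.8% passed. At the same unadjusted threshold DESeq2 with batch gave 0 of 9 for HIV-1 against PBS, where 2.42% of all genes passed. It gave 1 of 9 (STAT2) for HIV-1+LTA against HIV-1, where 10.4% passed. For HIV-1+LTA against PBS it gave 2 of 9 (STAT2 and IRF1), where 11.9% passed. DESeq2 with batch called 0 of 9 in each comparison at an adjusted p of 0.05. Of all genes it called 1.94% when HIV-1+LTA was set against HIV-1, 1.93% when it was set against PBS, and 0.015% when HIV-1 was set against PBS. In the authors' deposited table, whose values equal those of the DESeq2 fit for HIV-1+LTA against PBS, STAT2 had a log2 fold change of 0.27 (adjusted p = 0.128), IRF1 0.34 (adjusted p = 0.105) and IRF7 0.42 (adjusted p = 0.283).

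Direction within batches was counted next. With HIV-1 as the reference, 3 of 9 genes in HIV-1+LTA were higher in all 3 batches (IFNAR1, IFNAR2 and JAK1), against 16.7% of all genes, and 0 of 9 were lower in all 3, against 17.1%. With PBS as the reference, 2 of 9 in HIV-1+LTA were higher in all 3 batches (JAK1 and IRF7), against 17.5% of all genes, and 0 of 9 were lower, against 16.4%. For HIV-1 against PBS, 1 of 9 was higher (IRF7), against 16.3%, and 2 of 9 were lower (IFNAR2 and IFNGR2), against 17.1%. The groups were free of overlap in 0 of 9 genes, against 4.37%, 3.82% and 2.74% of all genes in these 3 comparisons. The fitted values of HIV-1+LTA against HIV-1 were above 0 for 9 of 9 genes, with a median of 0.07, where 48.9% of all genes were above 0. In batch 1 the within-batch differences of IFNGR1, IFNGR2, STAT2, IRF9 and IRF1 were below 0. The median size of the fitted values, leaving out the sign, was 0.07 for the 9 genes and 0.10 for all genes. The fitted value of IFNGR1, 0.01, was below 0 without batch in the fit and without batch 3, HIV-1 replicate 3 or HIV-1+LTA replicate 3. The IRF9 value was below 0 in the same leave-outs (lowest -0.047), and that of IRF7 without HIV-1 replicate 1 (-0.041).

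**Figure D3:**
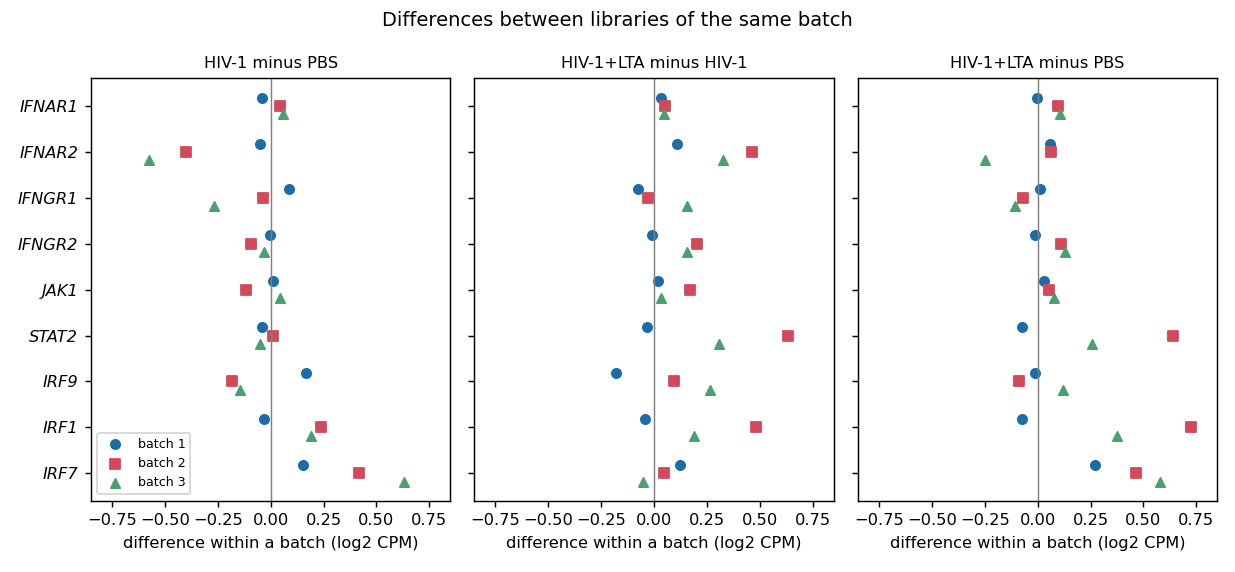
Difference in log2 CPM between 2 libraries of the same batch (horizontal axis) for the 9 genes, with 1 panel per comparison and 1 symbol per batch. For HIV-1+LTA minus HIV-1 and HIV-1+LTA minus PBS, STAT2 and IRF1 lie near 0 in batch 1 and between 0.19 and 0.72 in batches 2 and 3.

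For 8 of the 9 genes batch held more of the variance in log2 CPM than group did, and for IRF1 group held more. For batch 3 against batches 1 and 2, 9 of 9 passed an adjusted p of 0.05 in edgeR, as did most genes (71.2% of all). The median size of this batch difference in log2, leaving out the sign, was 0.69 for the 9 genes and 0.44 for all genes. Of the 9, 7 were lower in batch 3 (36% of all genes) and 2 were higher, JAK1 and IRF9 (35.2% of all genes). IFNAR2 had a log2 fold change of -1.59 (SE 0.134, adjusted p = 5.03e-07), with 1.52 ± 0.304 CPM in batch 3, against 4.45 ± 0.169 CPM in batch 1 and 4.65 ± 0.770 CPM in batch 2 (SD, n = 3 each). IFNGR2 had -1.04 (SE 0.0506, adjusted p = 5.00e-09) and IFNAR1 -0.92 (SE 0.0425, adjusted p = 3.42e-09). These 3 receptor genes are neighbours on chromosome 21, between positions 34577587 and 34851655, with IL10RB among them.

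The other receptor chain, IFNGR1, on chromosome 6, had a log2 fold change of -0.67 (SE 0.0582) in batch 3, and STAT2 one of -0.80 (SE 0.0966). IRF7 had -0.69 (SE 0.145) and IRF1 -0.27 (SE 0.102, adjusted p = 0.0348 in edgeR). Leaving out 1 library ended the IRF1 call in 6 of 9 cases, namely PBS, HIV-1 or HIV-1+LTA replicate 3, PBS or HIV-1 replicate 1, and HIV-1+LTA replicate 2, with values of -0.29 to -0.17. JAK1 was higher by 0.28 (SE 0.0435, adjusted p = 9.93e-05) and IRF9 by 0.37 (SE 0.112, adjusted p = 0.0110), which did not pass without HIV-1+LTA replicate 3 (0.28, adjusted p = 0.0871). Batch 3 did not overlap with batches 1 and 2 for 7 of the 9 genes, against 60.8% of all genes, the exceptions being IRF1 and IRF9. Batch held 99.3% of the variance in log2 CPM of IFNAR1, 98.4% for IFNGR2 and 79.3% for STAT2. The labels give no date or other description of the batches beyond their number.

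**Figure D4:**
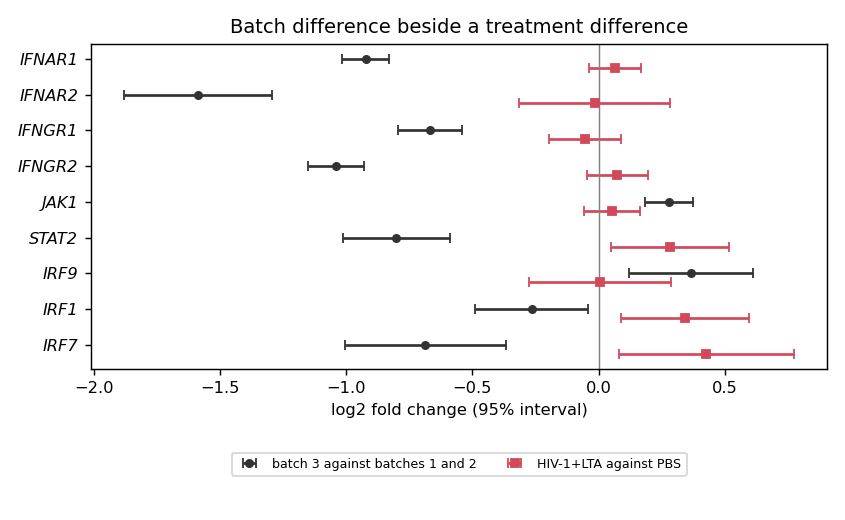
Log2 fold change with 95% interval (horizontal axis) of the 9 genes for batch 3 against batches 1 and 2 (dark circles) and for HIV-1+LTA against PBS (red squares), both from edgeR with batch. The batch difference of IFNAR2 is -1.59, while its treatment difference is -0.01, and for IRF1 the sizes are close, at -0.27 for batch and 0.34 for treatment.

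Interferon transcripts, the ligands of these receptors, were close to undetected. Of 22 interferon genes listed, 15 had no count in any of the 9 libraries, IFNB1 and IFNG among them, which allows up to 3 counts per library or 0.0320 to 0.0619 CPM. A further 6 had at most 4 counts in any library. IFNE, an epithelial type I interferon, was the 1 ligand with enough counts to test, at 0.458 CPM in HIV-1+LTA, 0.464 CPM in HIV-1 and 0.427 CPM in PBS on average. On the log2 scale IFNE in HIV-1+LTA differed by -0.07 (SE 0.332) from HIV-1 and by 0.19 (SE 0.329) from PBS. These limits cover counting error at 24 h only.

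Some genes bound by ISGF3, the complex that STAT2 and IRF9 form, rose in HIV-1+LTA against HIV-1 in DESeq2 and in no case in edgeR. Of 34 such genes listed, 33 were in the count file and 31 could be tested. Those in the file but not tested had at most 10 counts in any library. Of the 31 tested, 8 rose in DESeq2 with batch and 23 did not pass, 2 of them for want of an adjusted p, while edgeR called 0. DESeq2 called 1.94% of all genes there. The median log2 fold change was 0.35 and 29 of 31 were above 0, where all genes had a median of 0.00. By batch the median difference was 0.02, 0.55 and 0.38 in batches 1, 2 and 3. TRIM22, an antiviral ubiquitin ligase, averaged 15.1 CPM in HIV-1+LTA and 9.48 CPM in HIV-1, with a log2 fold change of 0.64 (SE 0.142, adjusted p = 0.00294 in DESeq2). PARP9 at 0.44 and its partner DTX3L at 0.37 passed as well, with DESeq2 adjusted p = 0.0101 and 0.0129, as did SAMD9L, a restriction factor, at 0.36 (adjusted p = 0.0162). The count of 8 depended on the libraries. In leave-out fits added after the data had been seen, DESeq2 called 17 of the 31 higher without HIV-1+LTA replicate 1, where it called 15.9% of all genes, and 16 without batch 1, where it called 10.7%. It called 7 without PBS replicate 1 or HIV-1 replicate 1, and 4 without PBS replicate 2 or 3, with 1.06% to 2.82% of all genes. It called 0 without HIV-1 replicate 2 or 3, HIV-1+LTA replicate 2 or 3, batch 2 or batch 3, with at most 0.0745% of all genes.

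Against PBS, 7 of the 31 ISGF3 target genes rose in HIV-1+LTA in DESeq2 with batch, which called 1.93% of all genes, and 24 did not pass, with a median of 0.36 and batch medians of 0.03, 0.64 and 0.41. In the same leave-out fits 21 were called without HIV-1+LTA replicate 1 (18.8% of all genes), 18 without batch 1 (13.1%) and 11 without PBS replicate 1 (4.67%). Without an HIV-1 library, a group not compared here, it was 3, 2 or 1 (0.154% to 0.673% of all genes), and it was 0 without PBS replicate 2 or 3, HIV-1+LTA replicate 2 or 3, batch 2 or batch 3 (at most 0.0202%). OAS3, an RNA-sensing enzyme, had 0.39 (SE 0.0880, adjusted p = 0.00716 in DESeq2). IFIT3, which binds viral RNA with its family members, had 0.41 (SE 0.100, adjusted p = 0.0137). ISG15, a ubiquitin-like modifier, had 0.50 (SE 0.125, adjusted p = 0.0195) and OAS2 0.71 (SE 0.181, adjusted p = 0.0215). ISG15 was higher by 0.51, 0.41 and 0.59 log2 CPM in batches 1, 2 and 3, so its batch 1 difference was as large as the others, whereas OAS3 had 0.11, 0.55 and 0.54. For HIV-1 against PBS 0 of 31 passed in edgeR or DESeq2, 0 of 31 had an unadjusted p below 0.05 in edgeR, the median was 0.02 and 17 of 31 were above 0. OAS2 had the lowest p there, at a log2 fold change of 0.34 (SE 0.163, unadjusted p = 0.0631 in edgeR).

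Genes activated by GAF or IRF1 also had their smallest median difference in batch 1. Of 28 such genes listed, 24 could be tested, and those not tested had at most 12 counts in any library. Of the 24, 4 rose in HIV-1+LTA against HIV-1 in DESeq2 with batch, which called 1.94% of all genes, and 20 did not pass. The median of the 24 was 0.26, with batch medians of 0.06, 0.47 and 0.16. PSMB9, an immunoproteasome subunit, averaged 21.4 CPM in HIV-1+LTA and 13.6 CPM in HIV-1, with a log2 fold change of 0.66 (SE 0.137, adjusted p = 0.00126 in DESeq2). GBP4, an interferon-induced GTPase, had 0.80 (SE 0.170, adjusted p = 0.00162), PSME1, a proteasome activator subunit, 0.34 (SE 0.0733, adjusted p = 0.00212), and APOL6 0.43 (SE 0.100, adjusted p = 0.00461). Against PBS, 4 of 24 rose in HIV-1+LTA, 1 fell and 19 did not pass, with a median of 0.18 and 1.93% of all genes called. Those that rose were PSMB9 at 0.72, PSMB10 at 0.56, HLA-F at 0.55 and APOL6. CD274, which encodes the checkpoint ligand PD-L1, fell by 0.41 (SE 0.114, adjusted p = 0.0336 in DESeq2) and averaged 33.6 CPM in HIV-1+LTA and 45.0 CPM in PBS. The CD274 differences were 0.06, -0.76 and -0.51 log2 CPM in batches 1, 2 and 3, so it did not fall in batch 1. EdgeR called 0 of 24 in each comparison. In the leave-out fits, whose shares of all genes called are given with the ISGF3 target genes, DESeq2 called 14 of 24 higher and 1 lower against HIV-1 without HIV-1+LTA replicate 1, and 11 and 1 without batch 1. It called 4 or 5 higher without a PBS library or HIV-1 replicate 1, 1 without HIV-1+LTA replicate 3, and 0 without HIV-1 replicate 2 or 3, HIV-1+LTA replicate 2, batch 2 or batch 3. Against PBS it called 12 higher and 2 lower without HIV-1+LTA replicate 1, 11 and 2 without batch 1, and 5 and 2 without PBS replicate 1. It called 1 higher and 0 lower without any 1 HIV-1 library, and 0 in both directions without PBS replicate 2 or 3, HIV-1+LTA replicate 2 or 3, batch 2 or batch 3.

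For HIV-1 against PBS 0 of the 24 GAF and IRF1 target genes passed in edgeR or DESeq2, with a median of -0.03. GBP1 had the lowest p, with 115 CPM in HIV-1 and 135 CPM in PBS and a log2 fold change of -0.23 (SE 0.0865, unadjusted p = 0.0207 and adjusted p = 0.946 in edgeR). GBP2 was next, at -0.24 (SE 0.0962, unadjusted p = 0.0310). Both are interferon-induced GTPases.

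**Figure D5:**
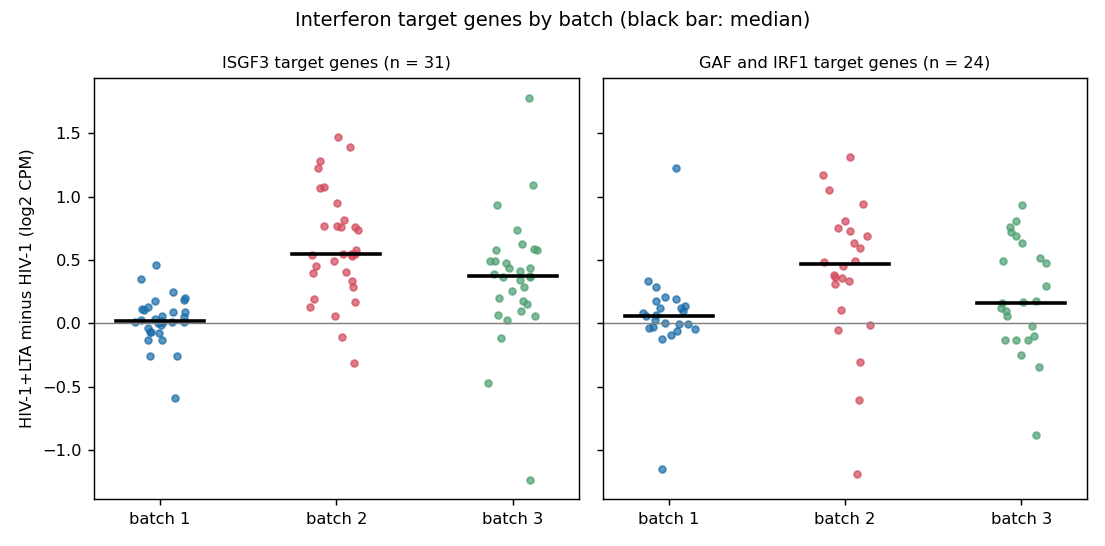
Difference in log2 CPM between HIV-1+LTA and HIV-1 (vertical axis) in each batch for 31 ISGF3 target genes (left) and 24 GAF and IRF1 target genes (right), 1 point per gene, with black bars for medians. The ISGF3 median is 0.02 in batch 1, 0.55 in batch 2 and 0.38 in batch 3, and the GAF and IRF1 median is 0.06, 0.47 and 0.16.

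The remaining genes of the pathway did not pass in edgeR or DESeq2 with batch, in any of the 3 comparisons. They were 5 other receptor chains and Janus kinases, 6 other STATs, 5 other IRFs, 18 negative regulators and 9 adaptors and kinases of interferon induction. In HIV-1+LTA against HIV-1 the IRF2 repressor had the lowest p of the other IRFs, at 0.29 (SE 0.0838, unadjusted p = 0.00509, adjusted p = 0.197 in edgeR), followed by IRF4. STAT3, the main STAT of the IL-6 family, had 0.20 (SE 0.0662, adjusted p = 0.227), with batch differences of 0.05, 0.40 and 0.13. IL10RB, the neighbour of IFNAR2 and a chain of the lambda interferon receptor, had 0.56 (SE 0.255, adjusted p = 0.322). Its batch differences were -0.21, 1.11 and 0.74, at 29 to 255 counts per library. JAK2 had -0.08 (SE 0.0615). Among negative regulators PIAS1 had 0.13, and among induction genes IKBKE had 0.15 and TRAF3 -0.13.

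In HIV-1+LTA against PBS the lowest p among the other IRFs was that of IRF3, an activator of IFNB1. It had 0.27 (SE 0.0790, adjusted p = 0.205 in edgeR), and IRF2 had 0.22. TYK2, the kinase on IFNAR1, had 0.18 (SE 0.0650, adjusted p = 0.229) and IL10RB 0.47, with IL10RB batch differences of -0.25, 0.84 and 0.88. STAT3 had 0.17 and STAT6 0.15. USP18, which blocks IFNAR2 signalling, had 0.56 (SE 0.176, unadjusted p = 0.00830, adjusted p = 0.206), with 2.30 CPM in HIV-1+LTA and 1.63 CPM in PBS, and SHISA5 had 0.16. Of the induction adaptors, TICAM1 had 0.26 and STING1 0.16.

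For HIV-1 against PBS, USP18 had 0.42 (SE 0.178, unadjusted p = 0.0351, adjusted p = 0.946 in edgeR) and was higher in each batch, by 0.32, 0.65 and 0.31 log2 CPM. PIAS1, a SUMO ligase that restrains STAT activity, had -0.17 (SE 0.0580, unadjusted p = 0.0125). TYK2 had 0.14 (SE 0.0651, unadjusted p = 0.0511). IRF8 at 0.30, IRF3 at 0.11, STAT4 at 0.62 with 0.217 CPM in HIV-1, JAK3 at 0.45, TICAM1 at 0.22 and TANK at -0.09 were the other genes with the lowest p of their lists, none of them at an unadjusted p below 0.05.

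Patterns most like those of STAT2 and IFNAR1 were looked for among the 9318 genes that averaged 10 CPM or more, by Pearson correlation of log2 CPM over the 9 libraries after subtracting each batch's mean. The closest to STAT2 were SZRD1 (r = 0.995), PSMB8 (0.994), GLG1 (0.993), RPL28 (0.990) and IQSEC2 (0.990). Their HIV-1+LTA minus HIV-1 differences ran from -0.04 to -0.01 in batch 1 and from 0.19 to 0.50 in batch 2. The closest to IFNAR1 were CYP20A1 (r = 0.983), FIGN (0.981), TMBIM4 (0.972), DPY19L2P2 (0.971) and FZD1 (0.970). With 9 libraries in 3 batches and that many genes searched, such values are a description. The libraries also differ in depth (50.6 to 90.6 M counts) and in composition (TMM factors of 0.899 to 1.08).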

How the data were processed

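RNA-seq counts of 9 LX-2 libraries were used, with a deposited comparison table and a ChIP-seq peak list. Per the submitters' processing notes, fastp, STAR, SAMtools and HTSeq were used on hg19 for RNA, and Bowtie2, bedtools and deepTools for ChIP; versions and the strand setting are not given in the sources used here. The authors deposited gene-level counts by symbol, raw and not normalized. Their deposited table holds a mean signal (normalized counts averaged over libraries), log2 fold changes with standard errors in log2, a Wald score, p-values and adjusted p-values. It names no comparison. A DESeq2 fit with batch of HIV-1+LTA against PBS gave 19990 of its 19990 log2 fold changes within 0.01, and all 236 of its calls. The deposited peak list gives positions only.

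Genes were kept with filterByExpr and tested in 1 fit over all 9 libraries with group and batch, by the edgeR 4.0.16 quasi-likelihood test (R 4.3.3) with TMM scaling and Benjamini-Hochberg adjustment over 16117 genes, calling at an adjusted p below 0.05. The standard error is the log2 fold change divided by the root of F. Log2 CPM used a prior count of 2. DESeq2 1.42.0 (genes with 10 or more counts in all), limma-voom (limma 3.58.1), other scalings, filters and designs, and leaving out libraries or batches were alternatives. Leave-out counts of target genes and of single members in batch 3 were added after seeing the data.

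The labels give the replicate number as the batch, so the numbers pair libraries. As a check, deviations from the group means correlated by 0.705 to 0.917 within batches and by -0.835 to 0.764 between them, so the ranges overlap. No 2 libraries were copies: the chi-square between any pair was at least 3.80 times its expectation.

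Members and lists were chosen with earlier results of these data known. From each list, up to 4 genes past an adjusted p of 0.05 with the lowest values were named, or up to 2 with the lowest p. Some genes of the lists are not reported here. Promoter sequences are RefSeq's (GRCh38.p14), and gene positions are those of GENCODE v44 on GRCh37.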

Additional observations from a re-analysis of the deposited data

How the results depend on the processing

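The fit with the replicate block, that is with batch, called 0 genes in each treatment comparison, and so did edgeR with no replicate block, where 0 of the 9 genes were called. Without the block, the genes at an unadjusted p below 0.05 numbered 153 for HIV-1+LTA against HIV-1, 141 for HIV-1+LTA against PBS, and 42 for HIV-1 against PBS. Other settings called more. For HIV-1 against PBS they gave 3 genes (DESeq2 with replicate block), 1 (DESeq2, no replicate block), 30 (edgeR on every gene with a count), 2 (edgeR on the 6 libraries compared) and 0 to 46 with libraries or batches left out. HIV-1+LTA against HIV-1 gave 252, 1 and 1016 genes in the first 3 of these settings and 0 to 2390 with leave-outs, the most without HIV-1+LTA replicate 1. HIV-1+LTA against PBS gave 236 (DESeq2 with replicate block), 1045 (every gene with a count) and 0 to 2648 with leave-outs, the most again without HIV-1+LTA replicate 1. Of the 9 genes, every gene with a count in the fit gave 1 call against HIV-1 and 2 against PBS for HIV-1+LTA, and leave-outs gave 0 to 2 in each. HIV-1 against PBS gave 0 throughout. Of 513 alternative values of single genes, 469 kept their sign and call, 11 (STAT2 and IRF1) passed where the reported value did not and 33 changed sign. With no replicate block, IFNGR1 in HIV-1+LTA against HIV-1 was -0.0046 (edgeR) and -0.0023 (DESeq2), and IFNAR2 in HIV-1+LTA against PBS was 0.014 (edgeR) and 0.0065 (DESeq2), and 0.029 in limma-voom with the block. IRF9 in HIV-1+LTA against PBS was -0.0022 (DESeq2 with block) and -0.00031 (RLE scaling). With libraries or batches left out, HIV-1 against PBS ran from -0.15 to 0.023 for IFNGR1, -0.056 to 0.028 for JAK1, -0.13 to 0.070 for STAT2, -0.17 to 0.023 for IRF9 and -0.0014 to 0.28 for IRF1. HIV-1+LTA against HIV-1 ran from -0.066 to 0.076 for IFNGR1, -0.047 to 0.19 for IRF9 and -0.041 to 0.11 for IRF7, and HIV-1+LTA against PBS from -0.11 to 0.068 for IFNAR2, -0.11 to 0.0056 for IFNGR1 and -0.073 to 0.071 for IRF9. For batch 3 against batches 1 and 2, 10282 to 11773 genes and 7 to 9 of the 9 were called in every setting. The cause of these changes was not tested.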
